A study of Mus musculus with 12 samples.

Results

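The genes described here make fatty acids from acetyl-CoA, lengthen them and introduce double bonds into them, or regulate these steps. They are Srebf1, Thrsp, Acly, Me1, Acaca, Fasn, Elovl6, Scd1, Scd2 and Pnpla3, taken by symbol from a table of 45808 genes. All 10 are in that table and all 10 passed the filter on low values, a mean normalized count of at least 10, which left 15025 genes. The members were chosen by measured values of these libraries, among them the lower means of several genes after P. gingivalis, so the group differences below are descriptions without a test and support nothing further. RNA came from the distal ileum of BALB/c mice, an inbred strain, and was sequenced after selection of polyadenylated transcripts. The groups are 6 libraries given PBS, the buffer control, and 6 treated with P. gingivalis, a bacterium of the mouth associated with periodontitis. The series title concerns intestinal inflammation mediated by this bacterium. How, how much and for how long the bacterium was given is not given in the labels, nor are the age of the mice and whether every library is a separate mouse, so p-values measure the spread between these samples, which may be technical.

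Fatty acid synthesis starts from citrate, which leaves the mitochondrion and is split into acetyl-CoA in the cytosol. Acetyl-CoA is carboxylated to malonyl-CoA, fatty acid synthase builds palmitate from both with NADPH as the reducing agent, and elongases and desaturases turn palmitate into longer and monounsaturated fatty acids. The transcription factor encoded by Srebf1 is a known activator of most of these genes. Fat cells and liver express the pathway strongly, the intestinal epithelium carries it too, and a piece of ileum can include mesenteric fat. Adipoq encodes adiponectin, a hormone of fat cells, and is therefore set beside each member.

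Recovered depth was 7610970 to 10378841 reads per PBS library and 6553306 to 9875045 per P. gingivalis library. Levels are normalized counts. A difference is the mean log2(normalized count + 1) after P. gingivalis less that in PBS, and its standard error (SE) follows it. Libraries differed in ways that the groups do not account for. Fabp6, a bile acid binding protein that marks the distal ileum, had a normalized count of 4.32 in PBS replicate 6, and of 2.52 and 16.0 in replicates 1 and 5 of P. gingivalis, against at least 11246 in each other library. These 3 libraries, labelled distal ileum like the rest, lack the defining marker of that segment. Adipoq had 0 reads in P. gingivalis replicates 1, 2 and 3, where 3 reads would correspond to between 2.14 and 3.78 normalized counts in any library. Because the tissue was taken whole, fewer cells of a type and less RNA per cell cannot be told apart.

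The region just before the transcription start is shown for members at both ends of the pattern below: Fasn and Pnpla3, which had much lower means after P. gingivalis, Acly, which had a smaller difference, and Srebf1, whose means were nearly equal. Each sequence covers 250 bases before the start, 5′ to 3′ on the gene's own strand, from RefSeq on GRCm38.p6. Capitals mark matches on either strand to CCAAT, the core of the NF-Y site, and to GGGCGG, the core of the Sp1 site; NF-Y and Sp1 are known partners of the Srebf1 product.
Fasn (chr11:120824548-120824797, minus strand): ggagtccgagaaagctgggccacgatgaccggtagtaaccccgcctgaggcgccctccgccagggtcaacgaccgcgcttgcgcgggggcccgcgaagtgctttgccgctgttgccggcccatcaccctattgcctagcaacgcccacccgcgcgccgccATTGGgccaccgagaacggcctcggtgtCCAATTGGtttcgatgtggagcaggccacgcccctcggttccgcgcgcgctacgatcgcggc
Pnpla3 (chr15:84167566-84167815, plus strand): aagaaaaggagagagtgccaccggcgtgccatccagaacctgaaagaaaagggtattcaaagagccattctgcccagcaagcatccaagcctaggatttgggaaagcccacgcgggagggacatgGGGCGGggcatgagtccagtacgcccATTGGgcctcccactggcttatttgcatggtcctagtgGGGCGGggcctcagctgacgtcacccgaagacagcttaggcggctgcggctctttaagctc
Acly (chr11:100528001-100528250, minus strand): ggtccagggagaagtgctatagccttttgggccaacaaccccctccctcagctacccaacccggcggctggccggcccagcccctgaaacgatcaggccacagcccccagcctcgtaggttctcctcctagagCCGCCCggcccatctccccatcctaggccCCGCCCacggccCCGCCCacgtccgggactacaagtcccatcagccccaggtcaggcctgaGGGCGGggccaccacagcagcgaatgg
Srebf1 (chr11:60222582-60222831, minus strand, the outermost of its starts): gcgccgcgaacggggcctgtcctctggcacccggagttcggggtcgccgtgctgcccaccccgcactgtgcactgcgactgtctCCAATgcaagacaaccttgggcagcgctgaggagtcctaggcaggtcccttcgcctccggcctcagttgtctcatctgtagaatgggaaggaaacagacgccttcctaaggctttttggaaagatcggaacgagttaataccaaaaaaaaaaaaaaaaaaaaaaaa
Fasn carried 3 CCAAT matches, 2 of them overlapping on opposite strands in CCAATTGG, and Acly carried 4 GGGCGG matches. RefSeq windows of 300 bases, reaching 50 bases past the start, were found for 8 of the 10 members, 11 windows in all. Scd1 and Scd2 were not among them. Srebf1 had windows at other starts too, not shown, with 3 and 2 GGGCGG matches and 0 and 1 CCAAT matches. Its outermost window had 0 GGGCGG matches and 1 CCAAT match. CCAAT was present in 7 of the 11 windows and in 37.4% of all 32851 windows, and GGGCGG in 5 of the 11 and in 35.7% of all. The E-box CACGTG was in 0 of the 11 and in 7.15% of all windows, and its variant CATGTG in 2 and 14.2%. The sterol regulatory element TCACNCCAC was in 0 of the 11 and in 1.24% of all. These are matches of letters in short windows and say nothing of whether a factor binds.

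Of the regulators, Srebf1 had nearly the same mean in both groups and Thrsp was far lower after P. gingivalis. Srebf1 (chromosome 11, 60199089 to 60222581, minus strand, GRCm38) encodes SREBP-1, the transcription factor named above. It ran from 484 to 943 in PBS with a median of 612, and from 378 to 1050 after P. gingivalis with a median of 587. The groups overlapped over nearly their whole range, and the difference was 0.01 (SE 0.25). The 3 libraries that lack Fabp6 held the 3 highest Srebf1 values, 943, 1035 and 1050. Without them the difference was -0.23 (SE 0.17). Thrsp (chromosome 7, 97412938 to 97417730, minus strand) encodes Spot 14, a small protein induced with lipid synthesis that acts on acetyl-CoA carboxylase. It ran from 63.5 to 436 in PBS, median 204, and from 4.52 to 69.6 after P. gingivalis, median 16.1. Only PBS replicate 5 and P. gingivalis replicate 6 overlapped, and the difference was -3.54 (SE 0.63).

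Both genes that supply the pathway had lower means after P. gingivalis, by less than Thrsp. Acly (chromosome 11, 100476353 to 100528000, minus strand) encodes ATP citrate lyase, which makes cytosolic acetyl-CoA. It ran from 1059 to 1815 in PBS, median 1500, and from 852 to 1334 after P. gingivalis, median 1075, a difference of -0.42 (SE 0.15). Me1 (chromosome 9, 86581371 to 86695953, minus strand) encodes cytosolic malic enzyme, a source of NADPH. It ran from 130.4 to 461 in PBS, median 294, and from 82.2 to 190.3 after P. gingivalis, median 168, a difference of -0.90 (SE 0.28). For Me1, PBS replicate 5 was the only PBS library inside the range of the other group. For Acly, PBS replicates 5 and 6 were inside it.

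The 2 synthesis enzymes differed from each other in how far their groups stood apart. Acaca (chromosome 11, 84129672 to 84401651, plus strand) encodes acetyl-CoA carboxylase 1, which makes malonyl-CoA. It ran from 649 to 1618 in PBS, median 1197, and from 393 to 747 after P. gingivalis, median 591, a difference of -0.92 (SE 0.23). PBS replicate 6 alone fell within the P. gingivalis range. Fasn (chromosome 11, 120805846 to 120824547, minus strand) encodes fatty acid synthase. It ran from 1897 to 5880 in PBS, median 3934, and from 915 to 1814 after P. gingivalis, median 1077, a difference of -1.62 (SE 0.28). The groups did not overlap, though the highest P. gingivalis library, replicate 4, was close to the lowest PBS library, replicate 5. The ratio of Fasn to Acaca normalized counts, which does not depend on the scaling of a library, was 2.53 to 4.39 in PBS libraries and 1.61 to 2.57 in P. gingivalis libraries.

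Elongation and desaturation held both the steadiest and the most variable member. Elovl6 (chromosome 3, 129532355 to 129638495, plus strand) encodes the elongase that takes palmitate to stearate. It ran from 673 to 723 in PBS, median 697, and from 692 to 854 after P. gingivalis, median 776, so the highest of the 12 libraries was 1.27 times the lowest. The difference was 0.15 (SE 0.07). Scd1 (chromosome 19, 44394455 to 44407879, minus strand) encodes the main stearoyl-CoA desaturase of fat and liver, which makes oleate. It ran from 2125 to 12594 in PBS, median 8461, and from 41.6 to 1678 after P. gingivalis, median 135, a difference of -4.82 (SE 0.87). The groups did not overlap, and the highest library was 303 times the lowest. In the P. gingivalis group replicates 4 and 6, at 1386 and 1678, stood far above the other 4, which were between 41.6 and 152.

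Scd2 (chromosome 19, 44293674 to 44306864, plus strand), the neighbouring desaturase gene, did not follow Scd1. It ran from 326 to 1682 in PBS, median 1124, and from 250 to 2048 after P. gingivalis, median 1072, a difference of -0.30 (SE 0.55). Its lowest 3 values, 250, 256 and 326, were those of the 3 libraries without Fabp6. Without them the difference was 0.20 (SE 0.27). The ratio of Scd1 to Scd2 was 1.37 to 14.9 in PBS libraries and 0.0620 to 1.22 in P. gingivalis libraries. The labels do not say how reads shared by these similar genes were counted, so their split is uncertain.

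Pnpla3 (chromosome 15, 84167837 to 84187236, plus strand) encodes adiponutrin, a lipid droplet protein induced with lipid synthesis. It was the weakest member, with 356 reads over the 6 PBS libraries and 47 over the 6 P. gingivalis libraries, 30 of them in replicate 6. It ran from 13.4 to 79.8 in PBS, median 63.2, and from 1.10 to 26.1 after P. gingivalis, median 2.95, a difference of -3.17 (SE 0.63). Overlap came from P. gingivalis replicate 6 and PBS replicate 5.

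**Figure D1:**
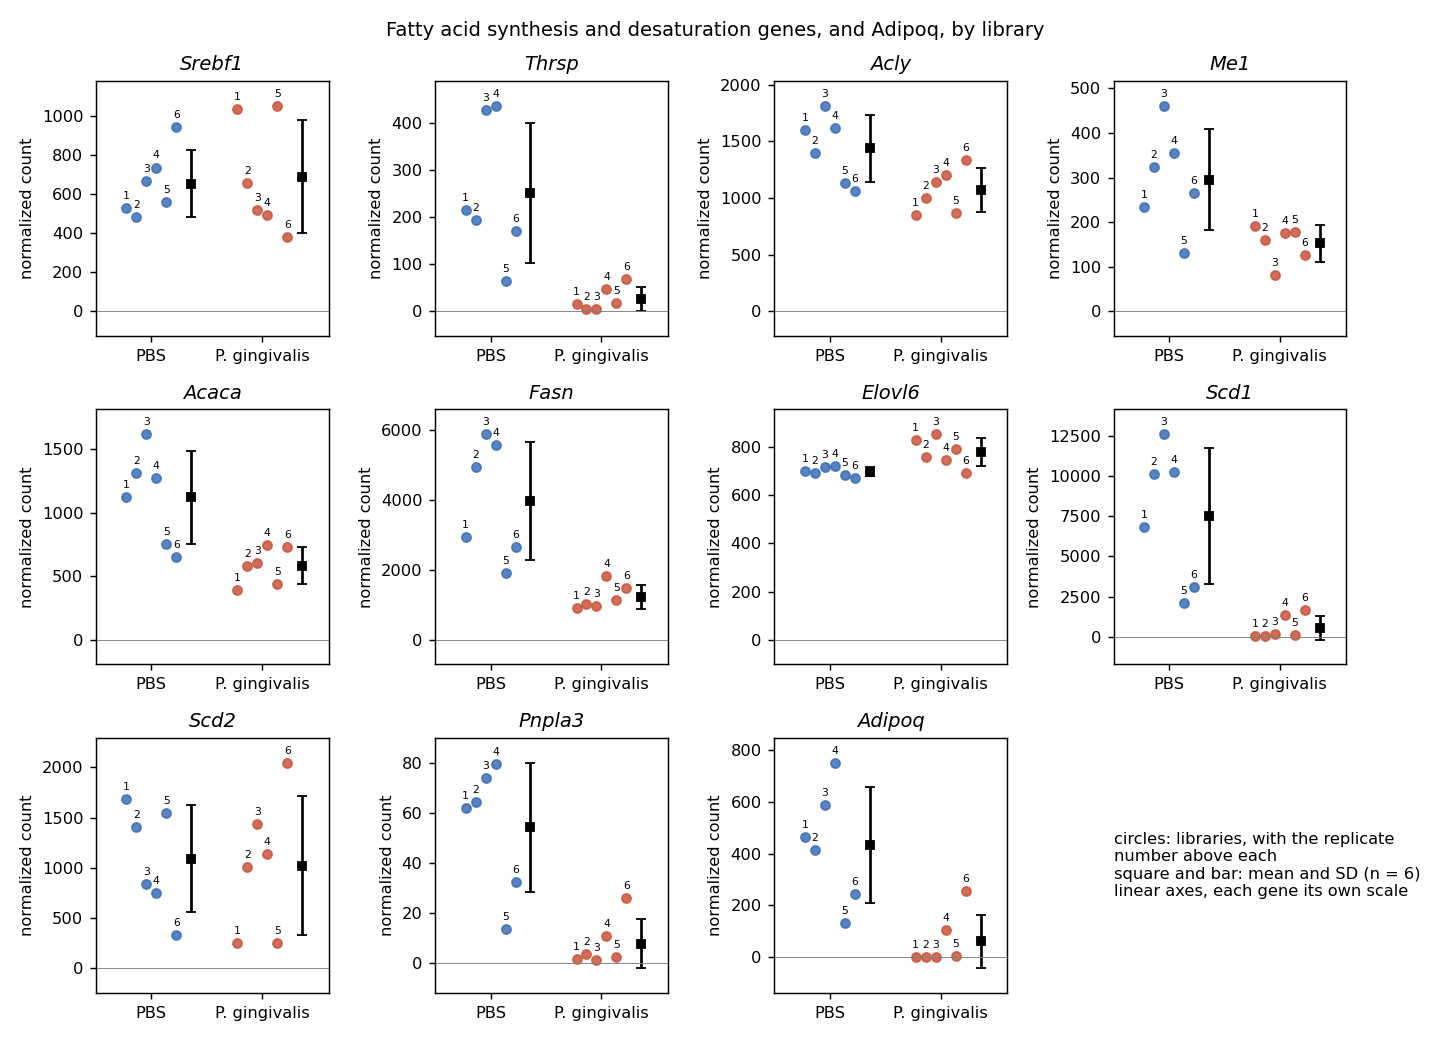
Normalized count of each gene and of Adipoq in the 12 libraries, by group (PBS in blue, P. gingivalis in red), with the replicate number above each point; squares and bars give the mean and SD (n = 6), and each linear axis has its own scale. Fasn and Scd1 have no overlap between groups, Elovl6 stays between 673 and 854, and Srebf1 and Scd2 overlap almost fully.

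Per kilobase of exon, the order of the PBS medians was Scd1 (1730 normalized counts per kilobase), Fasn (359), Acly (284), Scd2 (206), Srebf1 (109) and Elovl6 (108), then Thrsp (93.3), Me1 (76.4), Acaca (70.1) and Pnpla3 (40.8). Srebf1 and Elovl6, and Me1 and Acaca, were closer in this order than their spread between libraries. After P. gingivalis the highest 3 per kilobase were Acly (204), Scd2 (196) and Elovl6 (121), while Scd1 was at 27.6 and Thrsp at 7.37. All 10 together took 0.109% to 0.339% of reads in PBS libraries and 0.0524% to 0.132% in P. gingivalis libraries.

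Over all genes limma (adjusted p under 0.05) called 0 of 15025 higher and 0 lower, 0% of those tested, with 560 at an unadjusted p under 0.05, and 0 of the 10 members. With edgeR on the recovered reads, 0 members and 0 of 14907 genes were called lower, 0%, with 542 at an unadjusted p under 0.05. DESeq2 called 4 members lower, Thrsp, Acaca, Fasn and Scd1, where it called 0.164% of 18239 genes lower. Limma with sample weights called Thrsp, Scd1 and Pnpla3, against a background of 0.126%. Without P. gingivalis replicate 6 limma called Thrsp, Fasn, Scd1 and Pnpla3, against 0.346%, and without PBS replicate 5 it called Fasn, against 0.0466%. Groups without overlap, P. gingivalis below PBS, were seen for 2 members, Fasn and Scd1, and for 0.0732% of all tested genes, which is 11 genes. Nothing is read from these counts, since this contrast was used to choose the members.

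Inside each treatment group, Thrsp, Pnpla3, Scd1 and Fasn were higher in libraries with more Adipoq. Adipoq ran from 132 to 751 in PBS, median 439, and from 0 to 254 after P. gingivalis, with replicates 4 and 6 at 106 and 254 and the other 4 at 0 to 6.86. These relations do not use the difference between groups. However, the similarity to fat genes was known when the set was drawn up, so their p-values are descriptions and support nothing further. Relations were computed for 10 genes in 2 groups, 20 in all, as Pearson's r and Spearman's rho of log2(normalized count + 1), with two-sided exact permutation tests over 720 pairings and Benjamini-Hochberg adjustment. In PBS, r was 0.960 for Thrsp (exact permutation p = 0.00139, adjusted 0.0278; rho 1, exact p = 0.00278, adjusted 0.0556). It was 0.976 for Pnpla3 (exact permutation p = 0.00278, adjusted 0.0278; rho 0.943, exact p = 0.0167, adjusted 0.0833). For Scd1 it was 0.935 (exact permutation p = 0.00972, adjusted 0.0476) and for Fasn 0.891 (exact permutation p = 0.0125, adjusted 0.0476), each with rho 0.886 (exact p = 0.0333, adjusted 0.0952). Other genes with a similar r in PBS did not pass: Acly (0.862, adjusted exact permutation p = 0.0639), Me1 (0.862, 0.0617), Elovl6 (0.828, 0.0758) and Acaca (0.823, 0.0769). In Thrsp, Pnpla3, Scd1 and Fasn PBS replicate 5 was lowest and replicates 3 and 4 were high, as for Adipoq.

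In the P. gingivalis group r was 0.934 for Thrsp (exact permutation p = 0.00833, adjusted 0.0476; rho 0.941, exact p = 0.0167, adjusted 0.0833). It was 0.923 for Fasn (exact permutation p = 0.0167, adjusted 0.0476; rho 0.880, exact p = 0.05, adjusted 0.121) and 0.919 for Pnpla3 (exact permutation p = 0.0167, adjusted 0.0476; rho 0.820, exact p = 0.0667, adjusted 0.121). Scd1 had r 0.942 and did not pass (exact permutation p = 0.0250, adjusted 0.0617; rho 0.820, exact p = 0.0667, adjusted 0.121). In all 7 of the 20 relations passed by r and 0 by rho. By rank the smallest possible exact permutation p in a group of 6 is 0.00278. Even rho 1, of Thrsp in PBS, had that p and was adjusted to 0.0556. A single relation therefore could not pass by rho, whatever its values. Without the 2 libraries farthest from the median of Adipoq, replicates 5 and 6 in PBS, r was 0.929 for Thrsp and 0.948 for Pnpla3 but 0.526 for Fasn and 0.409 for Scd1. In that setting r was also 0.983 for Srebf1, against 0.0307 over all 6 PBS libraries, and 0.980 for Elovl6. A high r there was thus not particular to Thrsp and Pnpla3. Without P. gingivalis replicates 4 and 6 r was 0.828 for Fasn, 0.636 for Thrsp, 0.399 for Scd1 and 0.221 for Pnpla3. Adipoq was then 0 in replicates 1, 2 and 3 and 6.86 in replicate 5. These r therefore reflect only where replicate 5 lies. They cannot show, for any of these genes, whether the relation holds without replicates 4 and 6. In PBS the relations of Scd1 and Fasn rest largely on replicates 5 and 6.

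With both groups centred on their own means and joined, 4 of the 10 genes passed by r over 12 libraries (exact permutation within groups, adjusted over 10). These were Scd1 (r 0.925, adjusted exact p = 0.00304; rho 0.853, adjusted 0.00648), Thrsp (0.879, 0.000116; rho 0.971, 0.000231), Pnpla3 (0.875, 0.00304; rho 0.883, 0.00417) and Fasn (0.635, 0.00272; rho 0.883, 0.00417). Acly passed by rank only (r 0.583, adjusted exact p = 0.0632; rho 0.794, adjusted 0.0144), and Acaca by neither (r 0.543, adjusted exact p = 0.0632; rho 0.647, adjusted 0.0686). Me1 (r 0.234), Scd2 (0.334), Srebf1 (-0.49) and Elovl6 (-0.69) did not pass, with adjusted exact permutation p-values from 0.140 to 0.465. Of all tested genes, 0.0932% had an r with Adipoq at least as high as that of Scd1, 0.226% as Thrsp, 0.286% as Pnpla3 and 8.67% as Fasn. The median r over all tested genes was -0.02 and over the members 0.563. The similarity to fat genes was known when the set was drawn up, so these p-values, shares and medians are descriptions and support nothing further. Elovl6 followed Adipoq upward in PBS (r 0.828, adjusted exact permutation p = 0.0758) and downward in the P. gingivalis group (r -0.83, adjusted exact permutation p = 0.0769); neither passed, and the difference between these was not tested.

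**Figure D2:**
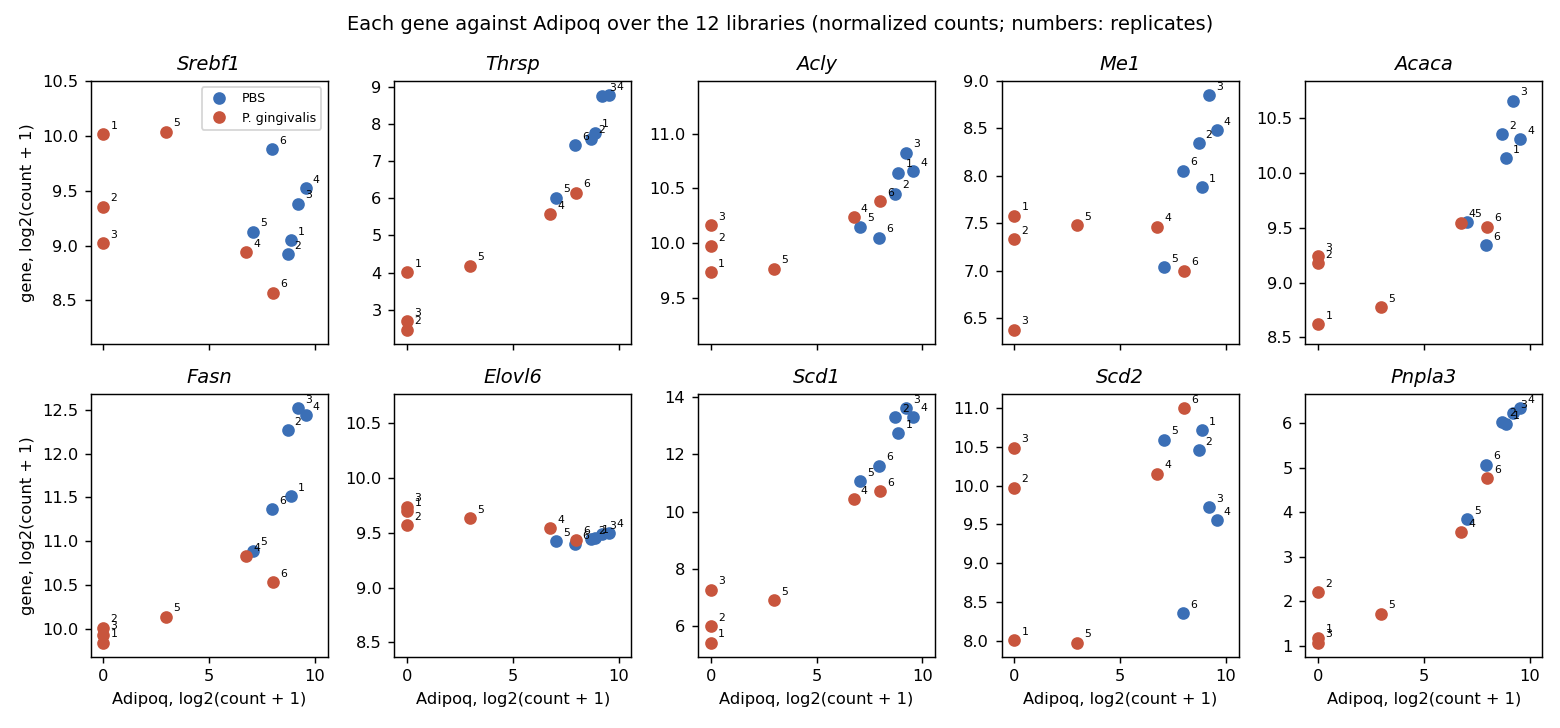
Each gene (vertical) against Adipoq (horizontal) in the 12 libraries, both as log2(normalized count + 1), PBS in blue and P. gingivalis in red, with replicate numbers. Thrsp, Scd1 and Pnpla3 climb with Adipoq in both groups. At Adipoq of 245 in PBS replicate 6 and 254 in P. gingivalis replicate 6, Thrsp is at 171 and 69.6, Scd1 at 3109 and 1678 and Pnpla3 at 32.4 and 26.1. These libraries differ in Fabp6, 4.32 and 15621. At Adipoq of 132 in PBS replicate 5 and 106 in P. gingivalis replicate 4, Thrsp is at 63.5 and 46.6, Scd1 at 2125 and 1386 and Pnpla3 at 13.4 and 10.8.

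The 3 libraries without an Adipoq read give the level of each gene where that marker is missing. Of 12 fat cell identity genes 5 (Adipoq, Plin1, Cfd, Lep and Retn) were at 0 in all 3, and Car3 was at 2.19 to 2.71 against a PBS mean of 2492. Fabp4 was at 101.2 to 190.3 against 1803. Cidec, at 302 to 476, and Aqp7, at 124 to 335, did not follow Adipoq: P. gingivalis replicates 4 and 6, with the most Adipoq of that group, had 256 and 325 for Cidec and 128 and 96.6 for Aqp7. Which cells held the RNA of these genes was not tested. Fasn stood at 915, 1031 and 974 in P. gingivalis replicates 1, 2 and 3, which is 23.0%, 25.9% and 24.5% of its PBS mean. Scd1 stood at 0.554%, 0.831% and 2.03% of its PBS mean, Thrsp at 6.03%, 1.80% and 2.19%, and Pnpla3 at 2.32%, 6.66% and 2.02%, the last on 1, 4 and 1 reads. Acaca kept 35.1% to 53.9% of its PBS mean, Acly 59.3% to 79.7%, Me1 27.9% to 64.5%, Srebf1 79.7% to 159% and Elovl6 109% to 122%. In these libraries Scd1, Thrsp and Pnpla3 thus had almost no RNA left, and Fasn, Acaca, Me1 and Acly had a part left. Elovl6 stood somewhat above its PBS mean, and Srebf1 ranged from below to above its own. Acly and Srebf1 were not sharply parted: both were at 79.7% in replicate 3. Acly at 1145 there lay inside its PBS range of 1059 to 1815. Scd2 was at 92.1% and 132% in P. gingivalis replicates 2 and 3 and at 23.4% in replicate 1. Replicate 1 lacks Fabp6 and also gave the 159% of Srebf1.

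A straight line of each gene on Adipoq was fitted over all 12 libraries, as a description without a test. The libraries without an Adipoq read are among the 12 and weigh on the value at 0 Adipoq. A like order of the genes there is therefore no second result. The line's value at 0 Adipoq was 946 (SE 299) for Fasn, which is 23.8% of the PBS mean, -122 (SE 728) for Scd1, -5.64 (SE 18.2) for Thrsp and 1.82 (SE 2.61) for Pnpla3. It was 516 (SE 73.4) for Acaca, 46.1% of the PBS mean, 137 (SE 27.2) for Me1, 46.3%, and 987 (SE 57.4) for Acly, 68.7%. For Elovl6 it was 771 (SE 20.8) and for Srebf1 717 (SE 95.1), 110% of the PBS mean in both. The share of variance on the line was 0.961 for Pnpla3, 0.925 for Thrsp, 0.866 for Scd1 and 0.858 for Fasn, against 0.0453 for Srebf1 and 0.0170 for Scd2. Lines fitted within each group had slopes of 16.0 in PBS and 6.82 after P. gingivalis for Scd1, 6.44 and 2.39 for Fasn, 0.623 and 0.244 for Thrsp and 0.109 and 0.0941 for Pnpla3, in normalized counts per normalized count of Adipoq. The difference between slopes was not tested. Group and Adipoq go together on the line over 12 libraries, and which cells held the remaining RNA was not tested.

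With Adipoq as a term in the limma fit, the group difference was closer to 0 for 8 of the 10 genes. Scd1 went from -4.82 to -1.38 (SE 0.52), Thrsp from -3.54 to -1.18 (SE 0.48), Pnpla3 from -3.17 to -0.88 (SE 0.51) and Fasn from -1.62 to -0.89 (SE 0.34). Acaca went from -0.92 to -0.40 (SE 0.30), Me1 from -0.90 to -0.63 (SE 0.42), Acly from -0.42 to -0.07 (SE 0.20) and Elovl6 from 0.15 to 0.03 (SE 0.10). Srebf1 moved to -0.51 (SE 0.34) and Scd2 to 0.49 (SE 0.81). The members' median went from -0.91 to -0.57, while that of all tested genes was 0 to 2 decimals in both fits. P. gingivalis replicate 6 decided several of these values: without it the members' median was -0.32, Fasn -0.48, Me1 -0.09, Srebf1 -0.15 and Acaca -0.28, and Scd2 turned to -0.35. With the mean of the fat cell identity genes in place of Adipoq the median was -0.50, with Scd1 at -0.88 (SE 0.52), Thrsp at -0.75 (SE 0.44) and Fasn at -0.71 (SE 0.34). Genes at an unadjusted limma p under 0.05 numbered 560 with groups alone and 2136 with Adipoq in the model. Without P. gingivalis replicate 6 these numbers were 1252 and 513. Of the lists described below, medians moved away from 0 for acetyl-CoA and NADPH supply (-0.13 to -0.37), triglyceride assembly and storage (-0.14 to -0.50) and fatty acid oxidation (-0.11 to -0.44). Medians of the other lists stayed within -0.09 to 0.01. Adipoq itself differs between the groups, so the part that goes with Adipoq and the part that goes with treatment cannot be told apart in this design.

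**Figure D3:**
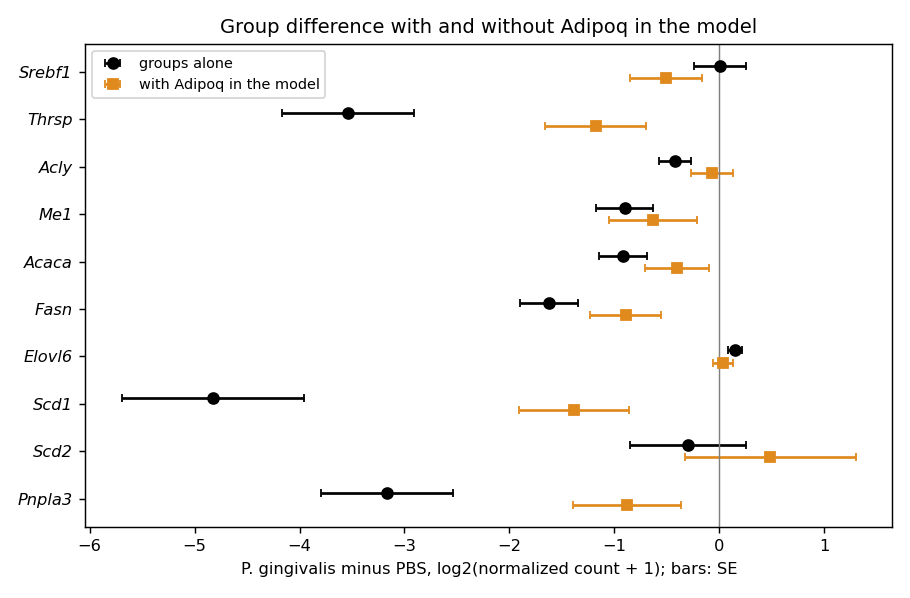
Group difference (P. gingivalis minus PBS, log2(normalized count + 1), bars SE) from the fit with groups alone (black circles) and with Adipoq as a further term (orange squares). Scd1, Thrsp and Pnpla3 move most, from -4.82, -3.54 and -3.17 to -1.38, -1.18 and -0.88.

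Markers of fat and of other tissue layers were set beside the members. Outside the fat list only Scd1 with smooth muscle passed, and by r alone. All 12 fat cell identity genes had lower means after P. gingivalis, and their summed level was 2955 to 12693 in PBS and 767 to 4632 after P. gingivalis. For smooth muscle all 8 markers had lower means, with sums of 14808 to 22709 and 9615 to 30287, the highest in P. gingivalis replicate 6. The 8 mesothelial markers summed to 162 to 361 and 69.3 to 137 without overlap. Of 13 epithelial markers 7 had lower means, with sums of 243921 to 324984 and 135366 to 419033, the lowest in P. gingivalis replicate 6. Of 6 genes listed for brown or beige fat, Ucp1 and Elovl3 had 1 read each over all 12 libraries. Cidea had 45 reads in PBS and 18 after P. gingivalis, Cox8b 51 and 14, Dio2 50 and 51, and Ppargc1a, which other tissues also express, 2671 and 3183. Of 50 relations between members and marker lists (group-centred, exact permutation within groups, adjusted over 50), 5 passed by r and 1, Thrsp with the fat list, by rho. Thrsp, Scd1, Pnpla3 and Fasn passed with the fat list (r 0.918, 0.937, 0.907 and 0.699; rho 1, 0.8, 0.8 and 0.8). The relations with the fat list are descriptions too, since the similarity to fat genes was known beforehand. Scd1 also passed with smooth muscle (r 0.848, adjusted exact p = 0.0310; rho 0.657, adjusted 0.169). The part of the smooth muscle, mesothelial and epithelial markers in the group differences was not tested.

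Srebf1 and Scd2 varied together in opposite directions, and with some of the genes that mark the position along the intestine. Fabp1, a fatty acid binding protein, and Lct, lactase, are higher in the upper small intestine, and Slc10a2, the ileal bile acid transporter, in the distal ileum. In the 3 libraries without Fabp6, Fabp1 was at 16938, 26745 and 21996, where the highest of the others was 1821. Since these libraries form a cluster of their own, the relations were computed over the other 9, after the values had been seen, 40 with position genes and 45 between members. Over 9 libraries Srebf1 followed Fabp1 (r 0.851, exact permutation p = 0.00486, adjusted 0.0486; rho 0.867, exact p = 0.0167, adjusted 0.133; r 0.970 without the 2 farthest libraries). It also followed Lct (r 0.796, exact permutation p = 0.00208, adjusted 0.0417; rho 0.867, exact p = 0.0167, adjusted 0.133; r 0.889 without the 2 farthest). Scd2 ran against Fabp1 (r -0.80, exact permutation p = 0.000694, adjusted 0.0278; rho -0.93, exact p = 0.00556, adjusted 0.0741; r -0.90 without the 2 farthest) and with Slc10a2 (r 0.914, exact permutation p = 0.00312, adjusted 0.0417; rho 0.933, exact p = 0.00556, adjusted 0.0741; r 0.788 without the 2 farthest). These 4 of the 40 passed by r and 0 by rho. Scd2 with Lct (r -0.69, exact permutation p = 0.00868, adjusted 0.0694) and Srebf1 with Slc10a2 (r -0.72, exact permutation p = 0.0476, adjusted 0.317; -0.22 without the 2 farthest) did not pass. Nor did Fabp6, with Srebf1 (r -0.38, exact permutation p = 0.303, adjusted 0.676; 0.224 without the 2 farthest) or with Scd2 (r 0.512, exact permutation p = 0.226, adjusted 0.676; 0.180 without the 2 farthest).

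**Figure D4:**
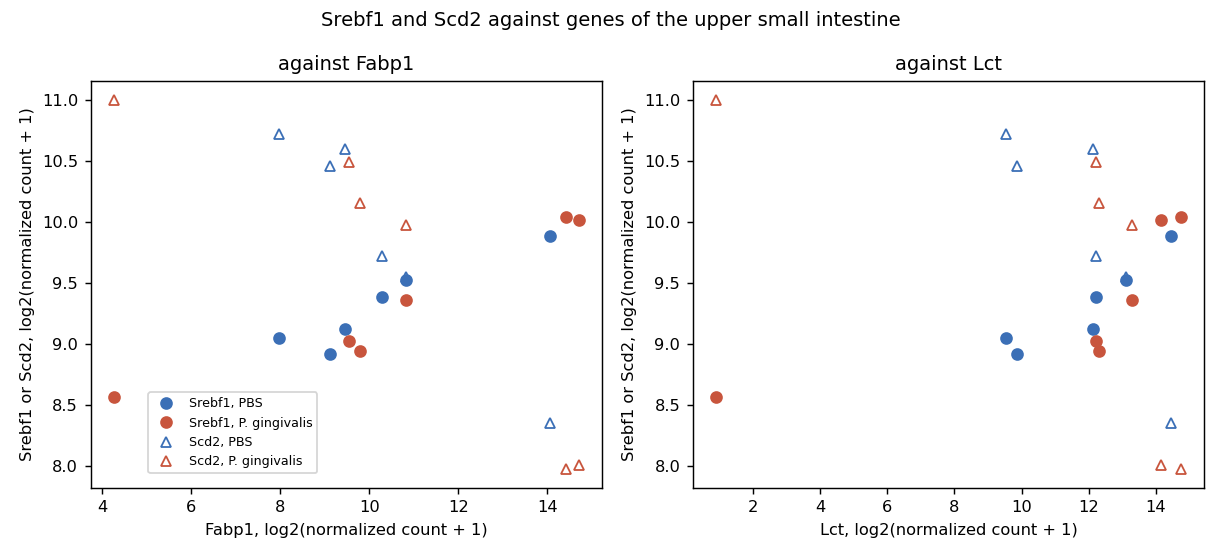
Srebf1 (filled circles) and Scd2 (open triangles) against Fabp1 (left) and Lct (right), all as log2(normalized count + 1), in 12 libraries, PBS in blue and P. gingivalis in red. The 3 libraries with the most Fabp1 have the highest Srebf1 and the lowest Scd2; P. gingivalis replicate 6, with an Lct value of 0.870, lies at the other end.

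Between Srebf1 and Scd2 themselves r was -0.88 over the 9 libraries (exact permutation p = 0.00799, adjusted 0.0375 over 45; rho -0.73, exact p = 0.0646, adjusted 0.153; r -0.72 without the 2 farthest). Among the other pairs Acaca and Fasn (r 0.936, adjusted exact permutation p = 0.0234; rho 0.867, adjusted 0.0750; r 0.909 without the 2 farthest) and Thrsp and Scd1 (r 0.961, adjusted exact permutation p = 0.0234; rho 0.867, adjusted 0.0750; r 0.926 without the 2 farthest) were the closest. Altogether 14 of the 45 pairs passed by r and 0 by rho. No pair with Elovl6 passed, with r from -0.60 to 0.535 and a smallest adjusted exact permutation p of 0.367. No pair of Srebf1 passed other than that with Scd2.

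**Figure D5:**
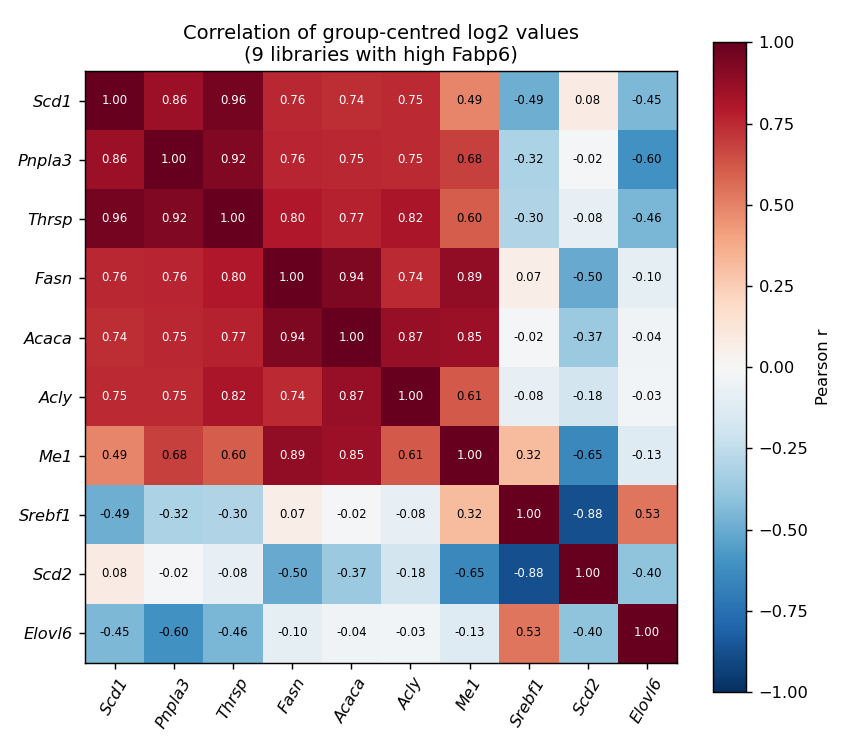
Pearson r between pairs of members over the 9 libraries with high Fabp6, computed from log2 values centred within each group; red is positive and blue negative. Scd1, Pnpla3, Thrsp, Fasn, Acaca, Acly and Me1 are positive with one another, with Me1 highest with Fasn (0.886) and Acaca (0.855), and Srebf1 with Scd2 is at -0.88.

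Over all tested genes, the 5 whose group-centred log2 values were most like those of Fasn over the 12 libraries were RP24-68G17.3 (r 0.915), Lpin1 (0.893), Lgals12 (0.872), Nat8l (0.859) and Rad54b (0.858). For Scd1 they were Glb1l2 (r 0.967), Cyp2e1 (0.952), Retn (0.950), A530016L24Rik (0.947) and Hnmt (0.946). For Acaca they were P3h4 (r 0.949), Acly (0.944), Cdo1 (0.938), Zrsr2 (0.934) and Camk1 (0.917). For Srebf1 they were Abcc6 (r 0.993), Tmem135 (0.984), RP23-227D7.8 (0.983), Pkm (0.978) and Slc27a2 (0.977) over the same 12 libraries, of which the 3 without Fabp6 had the highest Srebf1. Lpin1, a phosphatidate phosphatase, makes the diacylglycerol that becomes triglyceride, Lgals12 is a galectin of lipid droplets, and Retn is the fat cell hormone resistin.

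Other genes of the pathway were grouped in lists, drawn up with earlier results of these data known, and limma called 0 genes of any list in either direction. Among 12 genes of acetyl-CoA and NADPH supply 9 had a lower mean after P. gingivalis, with a median difference of -0.13, against 51.1% of all tested genes and a median of 0 to 2 decimals. Acacb, the mitochondrial acetyl-CoA carboxylase, had the smallest p there, at -0.91 (SE 0.28), from 174 ± 62.4 to 94.3 ± 40.0 (SD, n = 6). Tkt, transketolase, differed by -0.19 (SE 0.13), Pgd, which makes NADPH in the pentose phosphate pathway, by 0.09 (SE 0.19) and Idh1, cytosolic isocitrate dehydrogenase, by 0.08 (SE 0.24). Of 18 regulators of SREBP and of lipid synthesis 8 had a lower mean, with a median of 0.01. Mlx, the partner of the glucose-sensing factor ChREBP, differed by -0.15 (SE 0.12), Insig2, which retains SREBP in the endoplasmic reticulum, by -0.10 (SE 0.11), Cdk8, a kinase of the Mediator complex, by 0.15 (SE 0.08) and Mbtps2, a protease that releases SREBP, by 0.21 (SE 0.12). Limma's adjusted p-values were at least 0.855 for all 8.

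Of 19 other elongation and desaturation genes 14 were tested and 10 had a lower mean, with a median of -0.08. Fads3, of the fatty acid desaturase family, averaged 97.5 ± 31.9 in PBS and 43.0 ± 15.4 after P. gingivalis (SD, n = 6), a difference of -1.17 (SE 0.26, limma adjusted p = 0.286). It was called lower by DESeq2 and by limma without P. gingivalis replicate 6, the only gene of the lists to be so. Elovl1, an elongase of very long chains, differed by -0.25 (SE 0.18), and Hacd4 and Hacd3, dehydratases of the elongation cycle, by 0.16 (SE 0.12) and 0.07 (SE 0.07). Of 22 genes of triglyceride assembly and storage 19 were tested and 13 had a lower mean, with a median of -0.14. Mgll, monoacylglycerol lipase, differed by -0.67 (SE 0.22), Lpin1 by -0.51 (SE 0.18), Agpat3, an acyltransferase, by 0.25 (SE 0.34) and Acsl4, an acyl-CoA synthetase, by 0.13 (SE 0.19).

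Fatty acid synthesis inside the mitochondrion, a separate route that makes the precursor of lipoic acid, had 9 of 10 genes tested, 6 with a lower mean and a median of -0.01. Mcat, its malonyl transferase, differed by -0.17 (SE 0.12), Oxsm, its condensing enzyme, by -0.12 (SE 0.13), Lipt2, a lipoyl transferase, by 0.19 (SE 0.16) and Ndufab1, the acyl carrier protein, by 0.07 (SE 0.10). Of 19 genes of fatty acid oxidation 14 had a lower mean, with a median of -0.11. Acadm, the medium-chain acyl-CoA dehydrogenase, differed by -0.19 (SE 0.11), Hadhb, of the trifunctional protein, by -0.16 (SE 0.10), Cpt1b, a carnitine palmitoyltransferase, by 0.59 (SE 0.23) and Acadl, the long-chain acyl-CoA dehydrogenase, by 0.11 (SE 0.14).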

How the data were processed

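Per the labels, polyadenylated RNA of 12 samples of distal ileum, 6 per group, was purified on columns from tissue kept in RNAlater and made into TruSeq libraries. Per the submitters' processing notes, the build was GRCm38 (mm10) and the tools included FastQC, HISAT2, Cufflinks and DESeq2, without versions. Which tool counted reads, against which annotation and with which strand setting is not given in the sources used here, so overlapping and antisense genes are uncertain. The deposited values are a normalized signal per gene: read counts scaled by the authors with 1 size factor for each library, as the values show. Dividing by the step of each library gave whole reads for 100% of values within 0.001 reads, and edgeR 4.0.16 and DESeq2 1.42.0 were run on these. No library was a copy of another, with chi-square per degree of freedom of at least 6.54 for every pair.

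Limma 3.58.1 (R 4.3.3) with a mean-variance trend was fitted to log2(normalized count + 1) of the 15025 genes with a mean of at least 10, two-sided, with Benjamini-Hochberg adjustment over all of them at 0.05. The pseudocount makes differences of weak genes too small. The fitting steps were tested on simulated data. Correlations used log2(normalized count + 1) and exact permutation within groups. Positions are from GENCODE on GRCm38 and promoter windows from RefSeq. The members, the lists and the alternatives were chosen with earlier results of these data known. Genes named besides the members were, for each list, those called or else the 2 with the smallest p in each direction, the 5 genes most like Fasn, Scd1, Srebf1 and Acaca, and the markers a result turns on. The relations over 9 libraries and with marker lists were added after the values were seen. Alternatives were other pseudocounts, filters, scalings, tools and sample weights, a replicate block, Fabp6 as a term or as a reason to leave out libraries, other fat markers in place of Adipoq, and leaving out each library in turn. Same-numbered libraries did not deviate together (correlations from -0.54 to 0.0808), so no pairing by the numbers in the titles was seen. These correlations cannot exclude shared handling of same-numbered libraries. The floor of 3 reads covers counting error only, while SEs and SDs measure the spread between libraries.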

Additional observations from a re-analysis of the deposited data

How the results depend on the processing

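The directions of Thrsp, Acly, Me1, Acaca, Fasn, Elovl6, Scd1 and Pnpla3 held under every alternative for the group difference, and Pnpla3 was not in the setting with a filter at a mean of 50. Srebf1 turned with TMM rescaling (-0.016), without the 3 libraries lacking Fabp6 (-0.23) and with Fabp6 as a term (-0.16), and ran from -0.13 to 0.16 when single libraries were left out. Scd2 turned in the latter 2 settings (0.20 and 0.11) and ran from -0.61 to 0.026 when single libraries were left out. With Adipoq in the model Acly turned with the fat cell mean in its place (0.016), with pseudocount 5 (0.015) and with the replicate block (0.10), which also took Acaca to -0.07, and Scd2 ran from -0.35, without P. gingivalis replicate 6, to 0.82. Leaving out single libraries gave members' medians from -0.80 to -0.32 in that model. The centred correlation of Elovl6 with Adipoq was 0.0883 by rank. Without the 2 farthest libraries of each group it turned for Srebf1 (0.601), Scd2 (-0.60), Acly (-0.28) and Acaca (-0.28), and 0 members passed in place of 4; with single libraries left out 4 to 6 passed. That setting keeps 8 libraries and so has fewer pairings, and Adipoq in its P. gingivalis libraries is 0, 0, 0 and 6.86. The cause was otherwise not tested.

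Counts of calls in limma, 0 in the fit reported, depended on single libraries and on the tool. Genes called lower numbered 1 with pseudocount 5, 19 with sample weights and 30 with DESeq2, and 0 to 52 with single libraries left out, the 52 without P. gingivalis replicate 6, the library with the lowest sample weight, 0.347. Genes called higher numbered 1 with sample weights, 1 without the 3 libraries lacking Fabp6 and 3 with DESeq2, and 0 to 1 with single libraries left out. Members called lower numbered 3 with sample weights and 4 with DESeq2, and 0 to 4 with single libraries left out. Genes of the pathway lists called lower numbered 1 with DESeq2 and 0 to 1 with single libraries left out. The replicate block gave 0 calls in each direction and 462 genes at an unadjusted p under 0.05, against 560, and no number matched its own partner best. All 18 relations over 9 libraries that passed by r failed by rank. Precision is limited by 6 libraries per group and, for Pnpla3, by 47 reads in the P. gingivalis group.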
